A study of Mus musculus with 14 samples.

Results

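Conduritol B-epoxide (CBE) irreversibly blocks the breakdown of glucosylceramide in the lysosome, and its injection into young mice gives a chemically induced model of neuronopathic Gaucher disease. The comparison described here is between the brains of MyTrMaSt null mice given CBE and those of MyTrMaSt null mice given phosphate-buffered saline (PBS). The members were every library that the labels place in these groups, that is 5 MyTrMaSt + CBE libraries and 3 MyTrMaSt + PBS libraries, 8 of the 14 libraries of the series. All of these mice were null for Myd88, Ticam1, Mavs and Tmem173, the control mice included, and all were 19 days old. CBE was injected intraperitoneally each day at 100 mg per kg body weight, and control mice received PBS. The other 6 libraries, 3 of WT + CBE and 3 of WT + PBS, came from C57BL/6JOlaHsd mice of the same age. They are described only where the genotypes are compared, but they entered the filter, the scaling and the estimate of spread of every test. The WT mice were a commercial strain and the null mice a separate line, so that strain and genotype cannot be told apart. Each mouse carried its null alleles in every cell.

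The 4 missing proteins are adaptors, which carry a signal from a receptor to the kinases and transcription factors behind it. MyD88, the product of Myd88, serves nearly all Toll-like receptors, and TRIF, the product of Ticam1, serves the receptors of double-stranded RNA and of lipopolysaccharide. MAVS sits on mitochondria and relays the cytosolic RNA sensors, and STING, the product of Tmem173, relays the cytosolic DNA sensor cGAS. Together they feed the transcription of type 1 interferon (IFN) and of many NF-kappaB targets. Undegraded glucosylceramide builds up in the lysosome under CBE, and loss of neurons, activation of microglia and reactive astrocytes are known features of the disease in brain.

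RNA was counted per gene with a bulk form of MARS-seq, a method that sequences the 3′ ends of polyadenylated transcripts, so that a value depends little on transcript length and levels of different genes are not compared here. Library totals ran from 2129161 to 2679585 counts in MyTrMaSt + CBE and from 2812273 to 3704691 in MyTrMaSt + PBS. Levels are given as CPM, the counts of a gene per 1000000 counts of the library scaled by TMM, and changes as fitted log2 fold changes with their standard error (SE). Of 13866 genes listed, 11852 had enough counts for a test by edgeR's quasi-likelihood method, and a gene is called a DEG when its adjusted p was below 0.05 and its change 2-fold or more (Benjamini-Hochberg, over all genes tested). Genes that mark brain were abundant in all 8 libraries, with mean levels in MyTrMaSt + PBS of 2059.5 CPM for the synaptic gene Snap25, 10095 CPM for the myelin gene Mbp and 2178 CPM for the astrocyte glutamate transporter Slc1a2. One library stood apart. MyTrMaSt + CBE replicate 4 was the only one of the 8 with no count of Xist, the RNA of the inactive X chromosome, and it held 21 counts of the Y-linked gene Kdm5d and 21 of Eif2s3y, against 18 to 46 Xist counts in the other 7. On the second principal component it lay at 35.7 while the other 7 libraries lay between -17.3 and 6.25. Without it 410 DEGs remained, 351 up and 59 down, of which 383 were among those of all 8 libraries. Sex was not given in the labels. Whether the sex or the state of that mouse moved any value was not tested, and results that rest on it are given with and without it.

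Counts of the 4 disrupted genes were read first. Myd88 was at 3.11, 4.49 and 4.23 CPM in the PBS libraries and at 8.57, 7.51, 5.67, 10.8 and 3.91 CPM in the CBE libraries. Ticam1 was at 3.8, 6.87 and 3.52 CPM under PBS and 8.57, 5.63, 4.05, 5.91 and 5.48 CPM under CBE, and Mavs at 7.94, 6.6 and 2.47 and 11.7, 3.38, 4.46, 5.91 and 5.87 CPM. Tmem173 read 6.22, 5.02 and 7.04 CPM under PBS and 6.62, 12.8, 7.7, 9.35 and 9.39 CPM under CBE. The groups overlapped for all 4 genes and none was a DEG, with adjusted p between 0.183 and 0.879 for Tmem173 and Mavs and 0.12 for Myd88 (edgeR). In WT the mean levels under PBS and CBE were 13.4 and 25.0 CPM for Myd88, 6.86 and 7.7 CPM for Ticam1, 7.86 and 9.996 CPM for Mavs and 1.69 and 7.11 CPM for Tmem173 (n = 3 each). Myd88, Ticam1 and Mavs were thus lower in the null mice in both treatments, while Tmem173 was higher in the null mice, against the label. The genotypes were not tested against each other. A null allele can leave a transcript, and 3′ counts may lie outside the disrupted part, so these values do not check the genotype. Acaa1a lies on the other strand and shares exon positions with Myd88, so that reads of this pair cannot be told apart unless strand was used in counting.

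In the absence of the adaptors, CBE still changed 461 genes (3.89% of the genes tested), 383 upregulated (3.23% of the genes tested) and 78 downregulated (0.658%). The downregulated count depended on single libraries, at 32 without MyTrMaSt + PBS replicate 3 and 118 without WT + PBS replicate 1. Among gene lists the general myeloid, disease-associated microglia, reactive astrocyte, chemokine and complement lists had the greatest shares of upregulated members, followed by the IL-6 family and STAT3 list, cathepsins and the TNF and NF-kappaB list, and the list with the most members that fell was cholesterol synthesis. Some genes belong to several lists, so the shares are not of separate genes. In 377 of the upregulated and 77 of the downregulated genes the 5 CBE and the 3 PBS libraries did not overlap, a property that 22.5% of all genes tested shared. The plot of CPM by library shows how far apart the samples lay for genes of each kind.

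**Figure D1:**
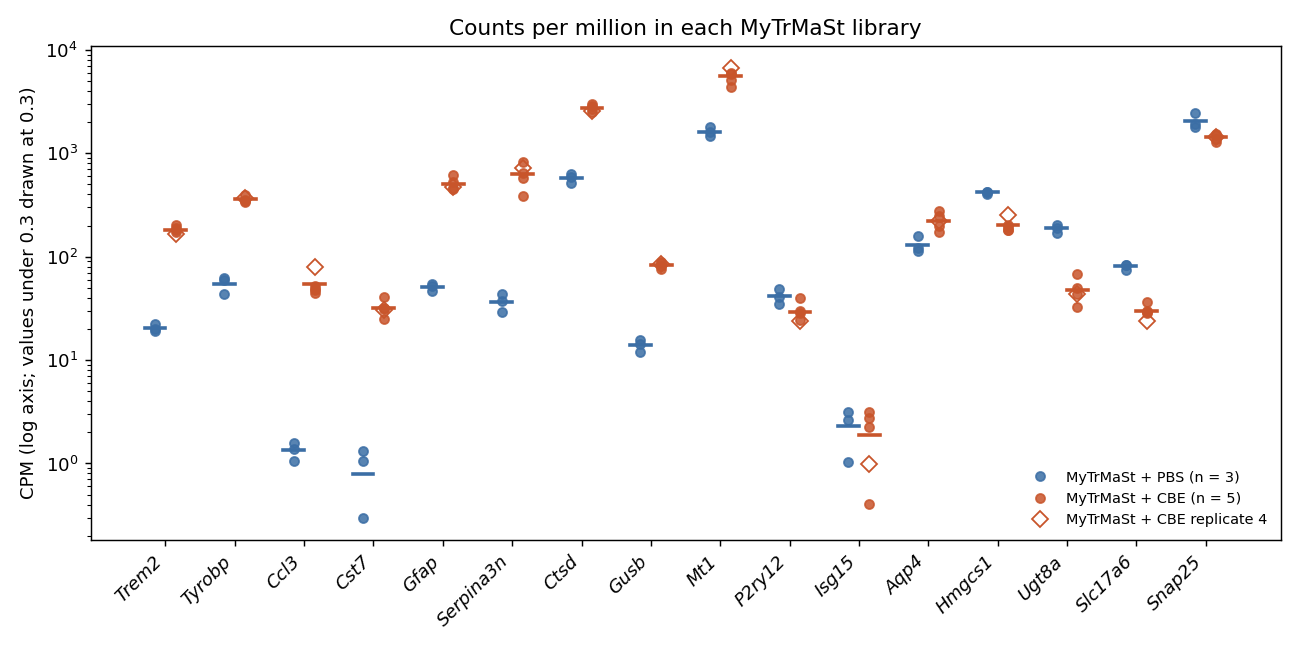
CPM on a log axis of 16 genes in each MyTrMaSt library, with 3 PBS and 5 CBE libraries as points, short bars at group means and replicate 4 of the CBE group drawn as an open diamond. Trem2, Tyrobp, Ccl3, Cst7, Gfap, Serpina3n, Ctsd, Gusb and Mt1 lay higher in every CBE library, Hmgcs1, Ugt8a, Slc17a6 and Snap25 lower, and P2ry12 and Isg15 overlapped.

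Microglial genes led the upregulated set. Of 36 genes tested from the disease-associated microglia (DAM) list, the genes of a microglial state that depends on the lipid receptor TREM2, 22 were upregulated and none downregulated, with a median log2 fold change of 2.15 against 0.01 over all genes tested. Trem2 itself read 20.03, 19.3 and 22.5 CPM in the PBS libraries and 183, 191, 172, 167 and 203 CPM in the CBE libraries. Every CBE library was above every PBS library, and the change was 8.89-fold (log2 3.15, SE 0.19, adjusted p = 1.71e-08). Tyrobp, which encodes the signalling partner of TREM2, read 43.2, 59.2 and 61.6 CPM under PBS and 392, 347, 338, 366 and 357 CPM under CBE. It rose 6.58-fold (log2 2.72, SE 0.19, adjusted p = 6.11e-08), again with no overlap. Cst7, an inhibitor of lysosomal cysteine proteases, was nearly absent under PBS at 0, 1.32 and 1.06 CPM and was at 40.5, 31.5, 24.7, 30.5 and 31.7 CPM under CBE, and the groups were far apart (36.1-fold, log2 5.17, SE 0.39, adjusted p = 1.07e-07). Lgals3, encoding the galectin that is also known as MAC2, rose from 7.98 ± 2.12 (SD, n = 3) to 176 ± 34.9 CPM (SD, n = 5). Itgax, the integrin chain of CD11c, had 1 count in all PBS libraries together and 4.48 CPM on average under CBE, a ratio of 43.4 (95% exact counting interval 7.48 to 1745). Clec7a, the beta-glucan receptor, also had 1 PBS count and its ratio was 34.9 (95% exact counting interval 5.95 to 1408).

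Genes of resting microglia did not fall as a group. Of 22 tested, 6 rose and none fell, among them Fcrls (log2 1.69, SE 0.18, adjusted p = 7.99e-06) and Olfml3 (log2 1.53, SE 0.19, adjusted p = 4.57e-05). Cx3cr1, the receptor of the neuronal chemokine fractalkine, rose 2.11-fold, but its call was lost without any one of the 3 PBS libraries. P2ry12, the purinergic receptor by which resting microglia sense ATP, read 34.5, 48.3 and 41.2 CPM under PBS and 40.1, 24.4, 28.8, 24.1 and 30.1 CPM under CBE, so that the groups overlapped (log2 -0.49, SE 0.32, adjusted p = 0.384). Tmem119, another marker of resident microglia, overlapped as well (log2 0.28, SE 0.24, adjusted p = 0.524). In bulk tissue, more or fewer cells of a type and more or less RNA per cell cannot be told apart. Without PBS replicate 1 or PBS replicate 3 the count of upregulated resting genes dropped to 3.

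In the broader myeloid list 29 of 43 genes were upregulated, with a median of 1.81. Fcgr2b, the inhibitory receptor of the Fc region of antibodies, rose from 1.69 ± 0.378 CPM (SD, n = 3) to 30.6 ± 2.85 CPM (SD, n = 5), Fcgr3 rose 4.35-fold and Fcer1g, the signalling chain of activating Fc receptors such as Fcgr3, rose 5.37-fold. Lilrb4a, an inhibitory receptor of myeloid cells, read 1.38, 0.528 and 1.76 CPM under PBS and 40.5, 36.4, 26.7, 32 and 45.4 CPM under CBE (log2 4.91, SE 0.31, adjusted p = 1.71e-08). Its neighbour Lilr4b had a single PBS count and the highest fitted change of all DEGs, a ratio of 89.9 (95% exact counting interval 15.8 to 3582). The 2 genes are close paralogs on chromosome 10, so the division of counts between them is uncertain. Ptprc, encoding the pan-leukocyte phosphatase CD45, rose 2.43-fold (adjusted p = 0.0245), a call that was lost without PBS replicate 1, PBS replicate 2 or CBE replicate 5. Markers of other blood cells gave little. Only 2 lymphocyte, 2 blood monocyte or neutrophil and 3 erythroid genes were tested and none was a DEG, with adjusted p = 0.489 for the T cell co-receptor Cd4 and 0.548 for Vcan (edgeR). Their defining genes Cd3e, Cd79a, S100a8, Ccr2 and Ly6c2 were not among the genes tested, being either not listed or too low in counts.

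The complement list, the cascade that tags debris and synapses for uptake, had 9 of 19 genes upregulated. Among them Itgb2, Itgax, C3ar1 and C5ar1 are also in the myeloid or the DAM list. All 3 chains of C1q rose, C1qa 4.63-fold, C1qb 5.13-fold and C1qc 5.19-fold. C1qa read 137, 127 and 130.3 CPM under PBS and 598, 566, 532, 669.6 and 677 CPM under CBE. C4b, the next component, read 9.67, 11.4 and 10.6 CPM in the PBS libraries and 71.7, 66.8, 83.5, 64.5 and 88.9 CPM in the CBE libraries, 7.08-fold higher with no overlap (log2 2.82, SE 0.27, adjusted p = 2.06e-06). Itgb2, the common chain of the complement receptors, rose 5.77-fold. C3, the point where the routes meet, was not a DEG at adjusted p = 0.053, and read 1.04, 1.32 and 3.17 CPM under PBS and 4.68, 6.38, 2.84, 2.46 and 10.6 CPM under CBE, the groups overlapping. It passed without CBE replicate 3 or CBE replicate 4.

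Part of the chemokine genes rose in the null mice. Of 26 chemokines and cytokines tested, 13 were upregulated and none fell. Ccl3 and Ccl4, which attract myeloid cells, were the leading pair. Ccl3 read 1.38, 1.59 and 1.06 CPM under PBS and 47.1, 52.6, 48.6, 78.8 and 45 CPM under CBE (38.5-fold, log2 5.27, SE 0.30, adjusted p = 1.71e-08), and replicate 4 was the highest of the CBE libraries. Ccl4 read 0, 0.793 and 0.704 CPM under PBS and 18.7, 34.2, 21.9, 30.03 and 24.7 CPM under CBE (45.3-fold, adjusted p = 1.09e-07). Both groups were clear of each other for both genes. Ccl2, which draws monocytes through CCR2, ranged more widely, at 5.46, 6.76, 5.67, 20.7 and 6.26 CPM under CBE against 0.345, 1.06 and 0.352 CPM under PBS (log2 3.69, SE 0.62, adjusted p = 0.00105, and log2 3.17 without replicate 4). Ccl6 rose 9.45-fold, and Csf1, the growth factor of microglia, rose 2.21-fold. Ccl5, a T cell and monocyte attractant, overlapped between the groups at 1.38, 0.528 and 1.76 CPM under PBS and 1.56, 1.13, 0.811, 0 and 1.96 CPM under CBE (log2 -0.03, adjusted p = 0.99), against a log2 change of 4.85 in WT (interaction adjusted p = 0.0031). The other list members with an interaction were Spp1, Lcn2 and Cxcl10, the last named after its values were seen, which had log2 1.59 in the null mice (adjusted p = 0.0844) and 6.29 in WT (interaction adjusted p = 0.0111, and 0.0668 with the Xist level as a covariate). The Cxcl10 change in the null mice ran from 1.25 to 2.44 when 1 MyTrMaSt library was left out, and it became a DEG in 3 alternative runs. Tnf had 1 count in the PBS libraries together and was not a DEG (adjusted p = 0.226).

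Receptors and regulators behind these messengers moved too. In the TNF and NF-kappaB list 10 of 24 genes were upregulated, a count that dropped to 6 without PBS replicate 2 or PBS replicate 3. Tnfrsf1a, the main TNF receptor, read 35.9, 32.2 and 32.8 CPM under PBS and 85.3, 89.4, 85.9, 154 and 96.3 CPM under CBE (3.03-fold, SE of log2 0.19, adjusted p = 2.99e-05). Replicate 4 was far above the other CBE libraries, and the log2 change was 1.60 with it and 1.41 without it. Bcl3, a nuclear member of the IkappaB family, rose 7.42-fold and Ltbr, the lymphotoxin receptor, 2.34-fold. The feedback inhibitor Nfkbia stood at the threshold (2-fold, adjusted p = 0.00128) and its call was lost without PBS replicate 2 or 3 or without CBE replicate 2, 3 or 4. In the IL-6 family and STAT3 list 8 of 18 rose. Among them Serpina3n, Timp1, Osmr and Lcn2 are also in the reactive astrocyte list and Bcl3 is also in the TNF and NF-kappaB list. Osmr, the oncostatin M receptor, rose 4.68-fold and Il6ra 4.93-fold, and Timp1, a STAT3 target that inhibits metalloproteinases, rose from 1.69 ± 0.837 to 24.8 ± 10.3 CPM (SD, n = 3 and 5). Socs3, the feedback inhibitor of STAT3, read 4.83, 3.7 and 4.58 CPM under PBS and 12.1, 16.1, 12.2, 53.2 and 15.7 CPM under CBE, with replicate 4 the highest (log2 2.29, SE 0.48, adjusted p = 0.00581, and log2 1.69 without replicate 4). Stat3 itself lay just under 2-fold (log2 0.96, adjusted p = 0.0312) and passed without CBE replicate 1 or CBE replicate 3. Among TGF-beta genes 5 of 18 rose, led by the co-receptor Cd109 (8.3-fold), with the receptor Tgfbr2 at 2.03-fold. The Tgfbr2 call was lost without PBS replicate 2 or CBE replicate 3, and the list count dropped to 3 without any one of the 3 PBS libraries or without CBE replicate 2 or CBE replicate 3.

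The receptors upstream of the missing adaptors were themselves raised in part. Of 11 pattern recognition receptors tested, 4 were upregulated, all of them surface or endosomal partners of the Toll-like family. Cd14, the co-receptor of lipopolysaccharide, read 3.45, 5.02 and 4.58 CPM under PBS and 27.7, 46.2, 27.6, 60.6 and 27.4 CPM under CBE (8.49-fold, log2 3.09, SE 0.31, adjusted p = 3.54e-06). Tlr2, the receptor of bacterial lipopeptides, read 2.76, 2.38 and 1.06 CPM under PBS and 14.8, 5.63, 8.51, 13.8 and 13.3 CPM under CBE (log2 2.38, SE 0.37, adjusted p = 4.25e-04). The groups of both genes did not overlap. Tlr13, which senses bacterial ribosomal RNA, rose 4.7-fold, and Tlr1, the partner of TLR2, had a ratio of 31.8 (95% exact counting interval 5.39 to 1285) over its single PBS count.

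**Figure D2:**
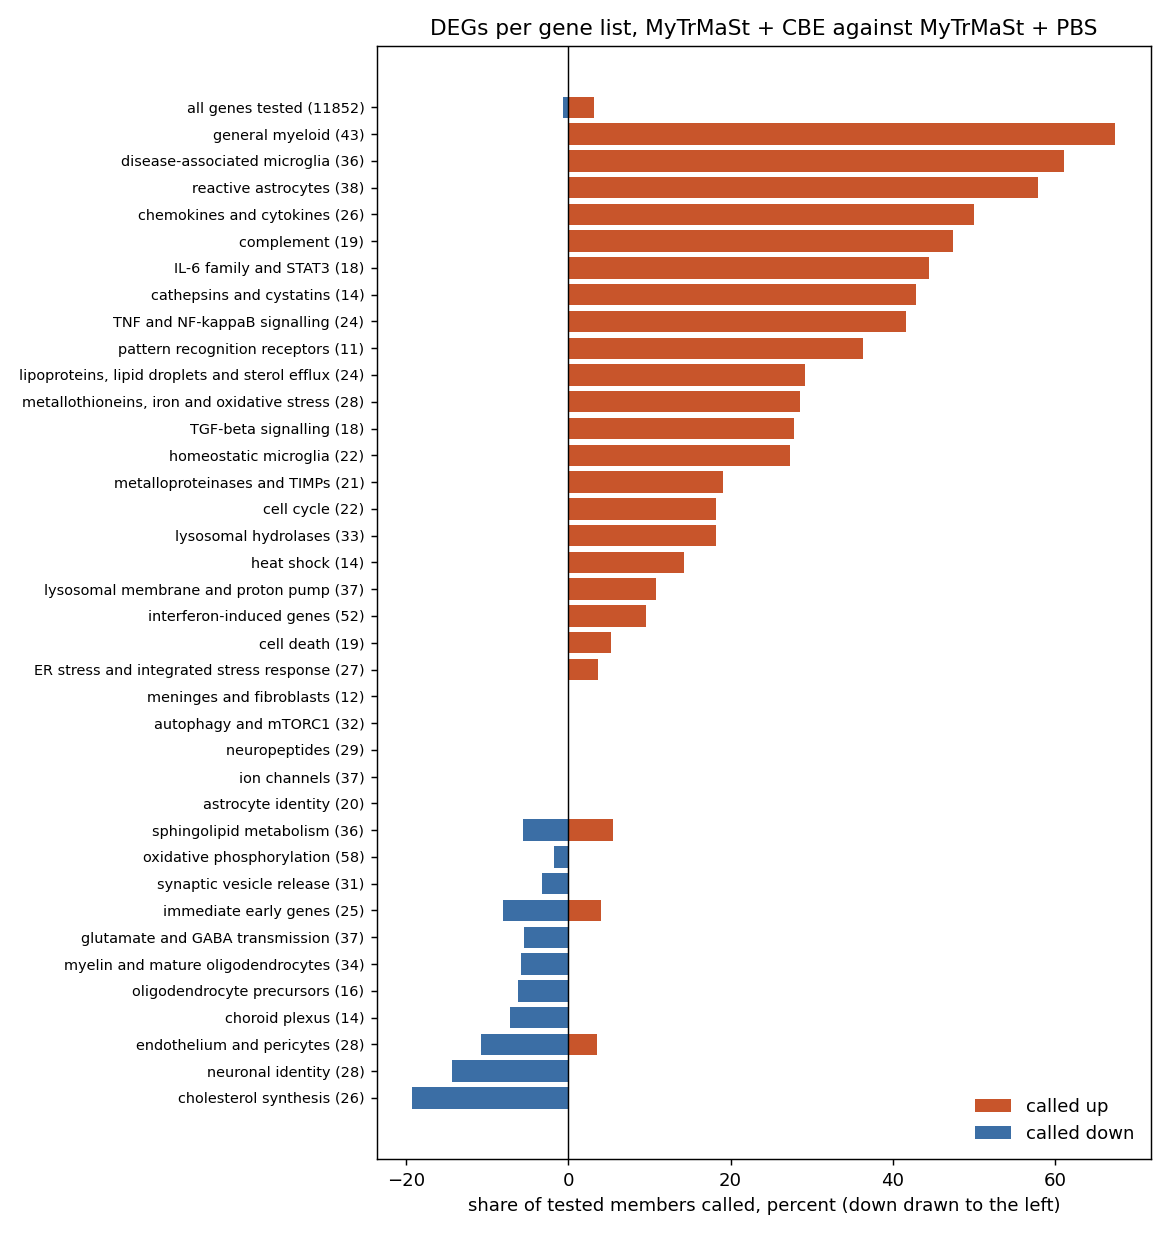
Share of the tested members of each gene list that were called up (orange, to the right) or down (blue, to the left) in MyTrMaSt + CBE against MyTrMaSt + PBS, in percent, with the number of genes tested in brackets and lists of at least 10 genes shown. The general myeloid, DAM and reactive astrocyte lists had the greatest shares called up and cholesterol synthesis the greatest share called down, and the top bar gives all 11852 genes.

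Reactive astrocytes were the other cell state that changed on this scale. Of 38 tested genes of that list, 22 were upregulated, with a median log2 fold change of 1.83, or 1.66 when 2 members with no PBS count are set to their lower bound. Gfap, the intermediate filament that defines reactive astrocytes, read 52.5, 54.9 and 46.1 CPM under PBS and 467, 614, 451, 470.2 and 532 CPM under CBE (9.89-fold, log2 3.31, SE 0.29, adjusted p = 7.82e-07). Serpina3n, a secreted protease inhibitor, read 29, 37.2 and 43.7 CPM under PBS and 649, 383, 575, 726 and 819 CPM under CBE (17.2-fold, log2 4.10, SE 0.26, adjusted p = 1.71e-08). Neither gene overlapped between the groups. Vim rose 3.29-fold, A2m, a broad protease inhibitor, 7.42-fold and Aspg, an asparaginase, 8.49-fold. Serpina3i, a paralog of Serpina3n that may share reads with it, had no PBS count and was at least 5.17-fold higher (floor of 3 counts over the PBS group). By contrast none of the 20 tested genes of resting astrocytes was a DEG, although in 11 of them every CBE library lay above every PBS library and their summed level was 129% of the PBS mean. Aqp4, the water channel of astrocyte endfeet, read 115, 120.2 and 158 CPM under PBS and 276, 175, 198, 224 and 247 CPM under CBE (log2 0.78, SE 0.24, adjusted p = 0.0561), and the glutamate transporter Slc1a3 had a log2 change of 0.33 (SE 0.12, adjusted p = 0.0968).

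**Figure D3:**
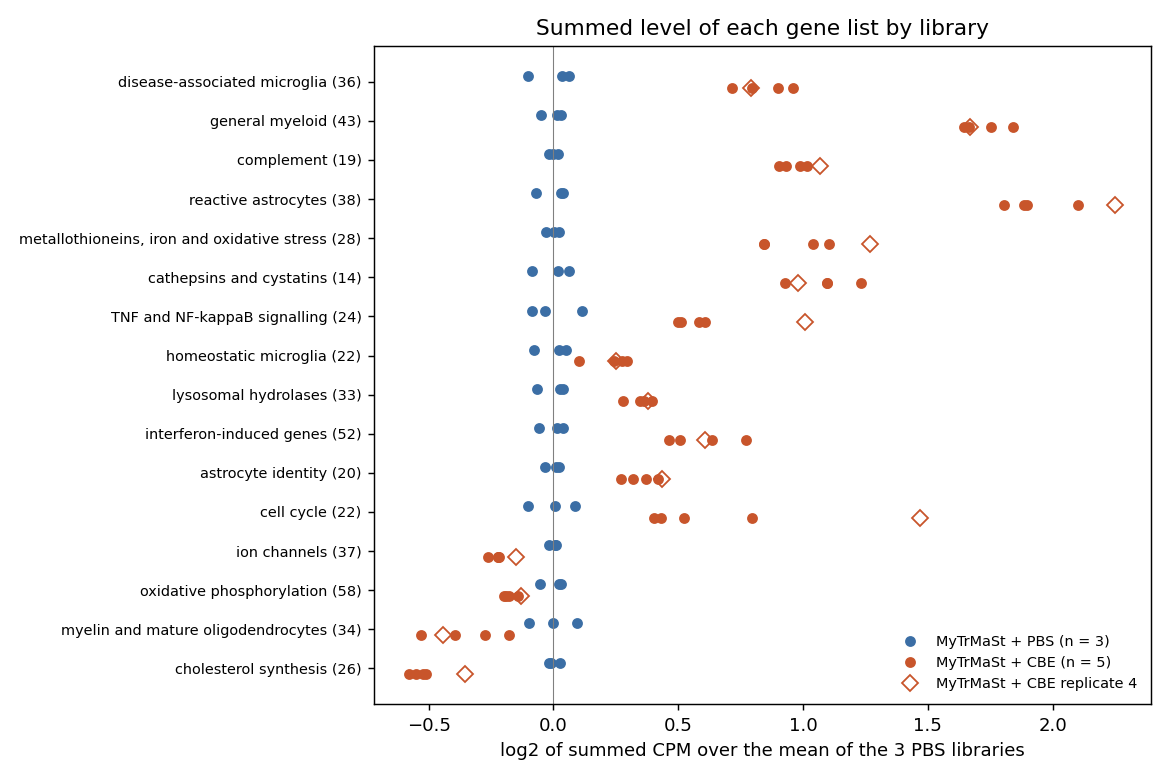
Summed CPM of 16 gene lists in each MyTrMaSt library, as the log2 ratio to the mean of the 3 PBS libraries, with the number of tested genes in brackets and replicate 4 of the CBE group as an open diamond. Reactive astrocyte and general myeloid sums were highest relative to PBS and cholesterol synthesis lowest, and replicate 4 lay far to the right for cell cycle and for TNF and NF-kappaB genes.

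CBE acts in the lysosome, and lysosomal genes were read in 3 lists. Of 33 hydrolases tested 6 were upregulated, among them Gusb, Lyz2, Galns, Dnase2a and Naglu, and none fell. Gusb, the beta-glucuronidase, read 12.1, 15.6 and 14.4 CPM under PBS and 81.8, 86.4, 87.9, 85.7 and 75.5 CPM under CBE (5.9-fold, log2 2.56, SE 0.16, adjusted p = 1.71e-08). Lyz2, the macrophage lysozyme, rose 7.8-fold. Galns and Naglu, which degrade keratan sulphate and heparan sulphate, rose 2.39-fold and 2.27-fold, and Dnase2a, the lysosomal DNase, 4.16-fold.

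Among lysosomal proteases and their inhibitors 6 of 14 cathepsins and cystatins were upregulated. Ctsd, the main aspartic protease of the lysosome, read 633, 594 and 519 CPM under PBS and 2884, 2704, 2497, 2569 and 3022 CPM under CBE (4.7-fold, log2 2.23, SE 0.19, adjusted p = 7.82e-07). Ctsz rose 5.31-fold, Ctss, a protease of antigen-presenting cells, 2.92-fold, and Ctsc, which activates serine proteases, 2.63-fold. Lgmn rose 2.18-fold, and its call was lost without PBS replicate 3. Ctsl was higher in all CBE libraries but under 2-fold (log2 0.68, SE 0.14, adjusted p = 0.00646). In the list of lysosomal membrane proteins and the proton pump 4 of 37 rose, and these were Cd68, Laptm5, Cd63 and Slc11a1. The first 2 are mostly of myeloid cells and Slc11a1 is a metal transporter of macrophage phagosomes. Cd68 read 13.5, 15.9 and 22.2 CPM under PBS and 145, 137, 111, 129 and 171 CPM under CBE. Lamp1, the general lysosomal membrane protein, changed by log2 0.45 (SE 0.11, adjusted p = 0.0136), and no proton pump subunit of that list was a DEG, with Atp6v1a at log2 -0.15 (SE 0.12, adjusted p = 0.475). The summed level of the 43 myeloid genes rose to 329% of the PBS mean, of the cathepsin list to 210.0%, of the hydrolases to 128% and of the membrane and pump list to 117%. How much of the lysosomal change came with the myeloid change was not tested.

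Sphingolipid genes moved in both directions. Of 36 tested, Sgpl1, the lyase that ends sphingosine-1-phosphate, and S1pr3, a receptor of that lipid, rose, and Ugt8a and Ormdl2 fell. Sgpl1 read 32.1, 29.6 and 24.3 CPM under PBS and 77.9, 81.9, 68.1, 96.5 and 82.6 CPM under CBE (log2 1.50, SE 0.26, adjusted p = 0.00141). S1pr3 read 12.8, 14.8 and 13 CPM and 35.8, 44.3, 38.9, 126 and 42.7 CPM, replicate 4 being far above the other CBE libraries, and the log2 change was 2.06 with it and 1.57 without it. Ugt8a, which makes galactosylceramide, the main sphingolipid of myelin, read 191, 171 and 203 CPM under PBS and 67.8, 43.6, 32.8, 43.3 and 49.7 CPM under CBE, 3.95-fold lower with no overlap (log2 -1.98, SE 0.32, adjusted p = 7.68e-04). Fa2h, which hydroxylates the fatty acid of the same lipids, read 324, 340.3 and 403 CPM under PBS and 188, 164, 178, 171 and 187 CPM under CBE and was 2-fold lower, just short of the fold cutoff (adjusted p = 9.12e-05). It passed without PBS replicate 1 or 2 or without CBE replicate 1 or 5. Ormdl2, a regulator of sphingolipid synthesis, fell 2.61-fold, and its call was lost without PBS replicate 2 or 3 or without CBE replicate 5. Ugcg, which makes the glucosylceramide that builds up, was not a DEG (log2 -0.63, SE 0.29, adjusted p = 0.203).

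Cholesterol synthesis was the list with the greatest share of downregulated genes. Of 26 tested, 5 fell and none rose, the median was -0.47, and in 15 all CBE libraries lay below all PBS libraries. Hmgcs1, which makes the substrate of the rate-limiting step, read 427, 404 and 424 CPM under PBS and 193, 181, 205, 254 and 182 CPM under CBE (log2 -1.04, SE 0.13, adjusted p = 4.95e-05). Msmo1, a later sterol oxidase, fell 2.26-fold, and Fdps and Cyp51, at earlier and later steps, 2.07-fold and 2.07-fold. The Fdps call was lost without PBS replicate 1 or CBE replicate 5 and the Cyp51 call without PBS replicate 1, which left 3 DEGs in the list. Srebf1, the regulator of fatty acid more than of sterol synthesis, was higher in all CBE libraries but under 2-fold (log2 0.72, adjusted p = 0.00861).

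Genes of lipid carriage and storage moved the other way, with 7 of 24 upregulated. Plin4, a coat protein of lipid droplets, had 3 counts in the PBS libraries together and read 11.3, 12, 19, 9.85 and 13.3 CPM under CBE, a ratio of 41.9 (95% exact counting interval 14.1 to 205). Plin2, the common droplet coat, rose 2.89-fold and Pnpla2, the lipase that opens the droplet, 2.58-fold. Ch25h, which makes 25-hydroxycholesterol, a sterol that lowers cholesterol synthesis, read 0.691, 1.59 and 2.47 CPM under PBS and 26.9, 16.9, 13.8, 17.2 and 26.6 CPM under CBE (12.6-fold, SE of log2 0.39, adjusted p = 7.51e-06). Apoc1 rose 2.43-fold, a call lost without PBS replicate 3, and Apoe 1.58-fold, under the cutoff (log2 0.66, SE 0.15, adjusted p = 0.0114).

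Metal binding and antioxidant genes rose in part, 8 of 28 in the list. Mt1 read 1473, 1786 and 1601 CPM under PBS and 4369, 5833, 5117, 6639.6 and 6019 CPM under CBE, and Mt2 874, 1139 and 959 CPM under PBS and 3891, 5507, 3188, 6762 and 4736 CPM under CBE. These metallothioneins, which bind zinc and copper, rose 3.45-fold (adjusted p = 3.08e-06) and 4.86-fold (adjusted p = 3.31e-06). Hmox1, which breaks down haem, rose 4.53-fold, Prdx6, a peroxidase, 2.18-fold, and Cyba, a subunit of the phagocyte oxidase, 6.44-fold. The ferritin light chain Ftl1 rose 2.14-fold, a call lost without PBS replicate 1. Other stress lists held few DEGs. In the list of endoplasmic reticulum stress only Atf3 of 27 was a DEG (6.74-fold, adjusted p = 2.21e-04), a share of 3.7% beside 3.89% of all genes tested. None of 32 autophagy genes was a DEG, and of 14 heat shock genes the small chaperones Hspb1 and Hspb8 rose (14.3%). Hspb1 read 8.98, 22.7 and 13.4 CPM under PBS and 64.3, 92.4, 62.4, 230.4 and 109 CPM under CBE, and replicate 4 held the highest value (log2 2.86 with it and 2.42 without it). Hspb8 rose 2.1-fold, a call lost without CBE replicate 5. In the cell death list Bik, a killer protein of the BCL-2 family, was the 1 DEG of 19, with 2 PBS counts in all and a ratio of 17.8 (95% exact counting interval 4.66 to 152) (adjusted p = 0.00195), and without CBE replicate 1 or CBE replicate 4 no DEG was left in that list.

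Of 22 cell cycle genes tested 4 rose, Cdkn1a, Plk1, Ccnb2 and Birc5. Cdkn1a encodes the cell cycle inhibitor p21 and the others act in mitosis. Cdkn1a read 51.8, 53.6 and 64.5 CPM under PBS and 102, 276, 98.5, 613 and 141 CPM under CBE, with replicate 4 far above the rest, and the fold was 4.33 (log2 2.12, SE 0.48, adjusted p = 0.00968). Without that library the log2 change was 1.45, and the Birc5 call was lost (log2 1.11, adjusted p = 0.0614), which left 3 DEGs. Without PBS replicate 1 all 4 calls were lost and 1 other gene of the list passed, without PBS replicate 2 Plk1 was left, and without PBS replicate 3 Cdkn1a and Ccnb2 were left. Top2a, a marker of dividing cells, was not a DEG (log2 -0.32, SE 0.39, adjusted p = 0.656).

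Oligodendrocyte genes leaned down without many DEGs. Of 34 myelin genes only Ugt8a and Ermn were called, while the median was -0.35 and 16 had no overlap. Ermn, a cytoskeletal protein of myelinating cells, read 23.5, 22.7 and 29.6 CPM under PBS and 10.9, 5.26, 6.08, 11.3 and 4.7 CPM under CBE (log2 -1.73, SE 0.34, adjusted p = 0.00383). Neither of the myelin protein genes Mbp and Mog was a DEG, with log2 -0.28 for Mbp (adjusted p = 0.266) and -0.35 for Mog (adjusted p = 0.194). Gpr17, a receptor of cells that are about to myelinate, fell 2.07-fold, a call lost without PBS replicate 3 or without CBE replicate 2 or 4, and the precursor marker Pdgfra was at log2 -0.11 (SE 0.35, adjusted p = 0.893).

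Neuronal genes leaned down with few DEGs. Of 28 neuronal genes 4 fell (14.3%, against 0.658% of all genes tested), and 2 did when CBE replicate 2 was left out. Every CBE library lay below every PBS library in 11 of the 28 and above in 2, and their summed level was 85% of the PBS mean. The glutamate and GABA and the ion channel lists had 12 and 13 of 37 below and 2 each above. The respiratory chain had 19 of 58 below and none above. Over all 11852 genes 1273 lay below and 1399 above. Nefh, the heavy neurofilament of large axons, read 234, 229 and 198 CPM under PBS and 84.2, 91.6, 85.9, 147 and 83 CPM under CBE (2.25-fold lower, SE of log2 0.21, adjusted p = 0.0015). Slc17a6, the vesicular glutamate transporter of brainstem and thalamic neurons, read 74.2, 83.7 and 83.5 CPM under PBS and 36.6, 30.04, 29.2, 24.1 and 28.6 CPM under CBE, 2.7-fold lower with no overlap (log2 -1.43, SE 0.25, adjusted p = 0.00141). Glra1, the glycine receptor of brainstem and spinal cord, fell 2.62-fold, and Vamp1, the vesicle protein of fast-firing neurons, 2.15-fold (adjusted p = 8.23e-04). No gene of 37 ion channels and 29 neuropeptides was a DEG in edgeR, although Kcnc1, a potassium channel of fast-firing neurons, had a log2 change of -0.48 (adjusted p = 0.0429). Rbfox3, the gene of the pan-neuronal marker NeuN, was at log2 -0.04 (SE 0.16, adjusted p = 0.902), and Snap25 was lower in all CBE libraries but under 2-fold (log2 -0.52, SE 0.13, adjusted p = 0.0162). Of 25 activity-induced genes tested 1 rose, Atf3, and 2 fell, Egr2 and Nr4a3, the latter with a call lost without any one of the 8 libraries (log2 -1.14, adjusted p = 0.0425). Egr2 read 12.8, 14.5 and 18 CPM under PBS and 6.23, 5.26, 3.65, 3.94 and 2.74 CPM under CBE (3.41-fold lower, adjusted p = 6.58e-04). Of the 58 respiratory chain genes 1 fell, Cycs, with cytochrome c as its product, and the call was lost without PBS replicate 1 or 2 or without CBE replicate 2, 3 or 4.

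Of 28 vessel genes tested 3 fell and 1 rose, and without PBS replicate 3 the count that fell was 1. Tek, the receptor of angiopoietin, read 14.2, 12.9 and 14.8 CPM under PBS and 5.84, 5.26, 7.7, 2.46 and 5.48 CPM under CBE (log2 -1.35, SE 0.27, adjusted p = 0.00442), and Rgs5, a pericyte gene, fell 2.6-fold, a call lost without PBS replicate 3. Apln, the ligand of the apelin receptor, was at the threshold (2-fold lower) and its call was lost without PBS replicate 3 or without CBE replicate 1, 2, 3 or 5. Cldn5, the tight junction protein of all brain endothelium, was at log2 -0.11 (SE 0.20, adjusted p = 0.79). The lowest fitted change of any DEG was that of Gkn3, which read 5.18, 8.19 and 7.04 CPM under PBS and 0.39, 1.88, 1.62, 0.492 and 1.57 CPM under CBE (5.46-fold lower, adjusted p = 4.16e-04), and Slc38a5, a glutamine transporter, fell 2.98-fold. Icam1, the leukocyte adhesion molecule of activated endothelium and microglia, rose 3.26-fold, a call lost without PBS replicate 3. Choroid plexus RNA was variable, with Ttr at 2520.2, 2559 and 4199 CPM under PBS and 2901, 2354, 2721, 1831 and 2019 CPM under CBE and not a DEG (adjusted p = 0.389), while Sostdc1 of the same list fell 2.57-fold.

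IFN-induced genes were the list in which the most genes differed between the genotypes in their response. In MyTrMaSt + CBE 5 of 52 tested rose, with a median of 0.50, and in WT + CBE against WT + PBS 51 rose, with a median of 3.45 (5.2% of all genes tested rose in WT and 1.21% fell, 6.4% in all). A direct test of the genotype by CBE interaction passed for 26 of these genes, against 58 of all genes tested (0.489%). The WT contrast is uneven in sex by the counts of Xist. With the Xist level as a covariate the interaction passed for 6 of these genes, Bst2, Ccl5, Gbp2, H2-D1, Ifit1 and Tap1. Of them Bst2, Gbp2 and Tap1 are named after their values were seen. Xist level went partly with the groups, so a lost call cannot tell a part of sex from lost precision. Without PBS replicate 3 and with no covariate the interaction passed for 15. Isg15, a ubiquitin-like protein made in large amounts under IFN, read 1.04, 2.64 and 3.17 CPM under PBS and 2.73, 2.25, 0.405, 0.985 and 3.13 CPM under CBE in the null mice, so that the groups overlapped. The interaction was -4.05 on the log2 scale (adjusted p = 0.00847, and 0.0871 with the Xist covariate). Ifit1, which blocks translation of viral RNA, read 1.38, 0.793 and 3.52 CPM under PBS and 0.779, 0.751, 1.22, 0.492 and 2.35 CPM under CBE (interaction -5.53, adjusted p = 0.00236), and Irf7, the regulator that amplifies IFN, had a log2 change of 1.14 (SE 0.53, adjusted p = 0.203). The genotypes differed for Irf7 by -3.59 (interaction adjusted p = 0.0317, and 0.15 with the covariate). Exons of Irf7 overlap Phrf1 on the opposite strand.

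The 5 IFN-induced genes that did rise in the null mice were Lgals3bp, Psmb8, H2-K1, Irf8 and Gbp3. Lgals3bp, which binds galectins, read 9.67, 11.6 and 9.86 CPM under PBS and 41.7, 43.2, 46.2, 44.8 and 52.5 CPM under CBE, 4.36-fold higher (adjusted p = 2.08e-06), Psmb8, a subunit of the immunoproteasome, rose 4.24-fold and H2-K1, a class I histocompatibility heavy chain, 2.39-fold. The class I genes are near-identical, so the division of counts among them is uncertain. Irf8 is a lineage factor of microglia as well as an IFN target. Gbp3 rose 2.15-fold, and its call was lost in 6 of the 8 runs that left out 1 library, the run without CBE replicate 4 among them. B2m, the light chain of class I molecules, was higher in all CBE libraries (log2 0.81, SE 0.44, adjusted p = 0.287).

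Promoters of IFN-induced genes are shown because their shared element was more frequent in this list than in the genes that rose. The RefSeq promoters in GRCm38.p6 (250 bases before to 50 after the start of transcription) were searched on both strands for GAAA followed, after any 2 bases, by a further GAAA, the core of the IFN-stimulated response element. It was found in 20 of 39 IFN-induced genes with a promoter in that table (51.3%), in 330 of 9066 genes tested (3.64%) and in 16 of 295 genes upregulated in MyTrMaSt + CBE (5.42%). Isg15 and Ifit1, which were not DEGs in the null mice, are printed with Gbp3, which was. Capitals mark the matches on either strand, the sequence runs 5′ to 3′ on the strand of the gene, and overlapping matches form 1 run.
Isg15 promoter, chr4:156200769-156201068, minus strand: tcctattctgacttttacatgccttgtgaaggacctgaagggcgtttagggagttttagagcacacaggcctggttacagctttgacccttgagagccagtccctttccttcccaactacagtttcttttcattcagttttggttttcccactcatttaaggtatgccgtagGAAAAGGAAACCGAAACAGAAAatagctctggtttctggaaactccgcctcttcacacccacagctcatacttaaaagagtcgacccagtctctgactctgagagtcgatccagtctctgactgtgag
Ifit1 promoter, chr19:34640639-34640938, plus strand: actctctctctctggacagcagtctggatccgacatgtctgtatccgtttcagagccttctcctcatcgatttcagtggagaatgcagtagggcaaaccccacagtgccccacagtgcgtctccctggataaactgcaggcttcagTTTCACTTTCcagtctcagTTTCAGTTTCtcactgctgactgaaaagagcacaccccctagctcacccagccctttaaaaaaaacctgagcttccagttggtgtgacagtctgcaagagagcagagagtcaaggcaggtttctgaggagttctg
Gbp3 promoter, chr3:142559794-142560093, plus strand: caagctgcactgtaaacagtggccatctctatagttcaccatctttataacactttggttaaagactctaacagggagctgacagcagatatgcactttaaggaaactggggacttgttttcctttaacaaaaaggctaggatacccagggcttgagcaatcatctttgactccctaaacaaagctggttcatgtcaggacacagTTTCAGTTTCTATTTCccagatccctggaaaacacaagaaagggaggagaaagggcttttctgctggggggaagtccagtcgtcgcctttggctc

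The E-box core CACGTG, the letters to which the lysosomal regulator TFEB and several other factors bind, was found in 20 of 67 lysosomal genes of the 3 lists with a promoter (29.9%) and in 1083 of 9066 genes tested (11.9%). Among the 14 upregulated lysosomal genes with a promoter it was found in 3 (21.4%), Ctsd, Naglu and Lgmn, and among the 295 upregulated genes in 30 (10.2%). A match is a description of letters and not a site. Ctsd and Naglu are printed as upregulated lysosomal genes that hold the core.
Ctsd promoter, chr7:142387778-142388077, minus strand: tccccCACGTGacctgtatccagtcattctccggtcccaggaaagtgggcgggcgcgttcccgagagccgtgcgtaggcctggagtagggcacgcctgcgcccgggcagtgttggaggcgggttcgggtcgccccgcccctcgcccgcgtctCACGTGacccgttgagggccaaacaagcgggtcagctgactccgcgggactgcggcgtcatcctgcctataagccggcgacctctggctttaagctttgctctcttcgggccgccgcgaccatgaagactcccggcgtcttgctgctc
Naglu promoter, chr11:101069844-101070143, plus strand: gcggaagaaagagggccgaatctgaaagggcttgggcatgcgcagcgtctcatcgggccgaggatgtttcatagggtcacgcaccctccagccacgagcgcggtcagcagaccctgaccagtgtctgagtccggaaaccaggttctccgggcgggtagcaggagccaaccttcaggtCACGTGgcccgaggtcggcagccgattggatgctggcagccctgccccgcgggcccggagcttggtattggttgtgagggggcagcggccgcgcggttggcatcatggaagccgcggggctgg

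**Figure D4:**
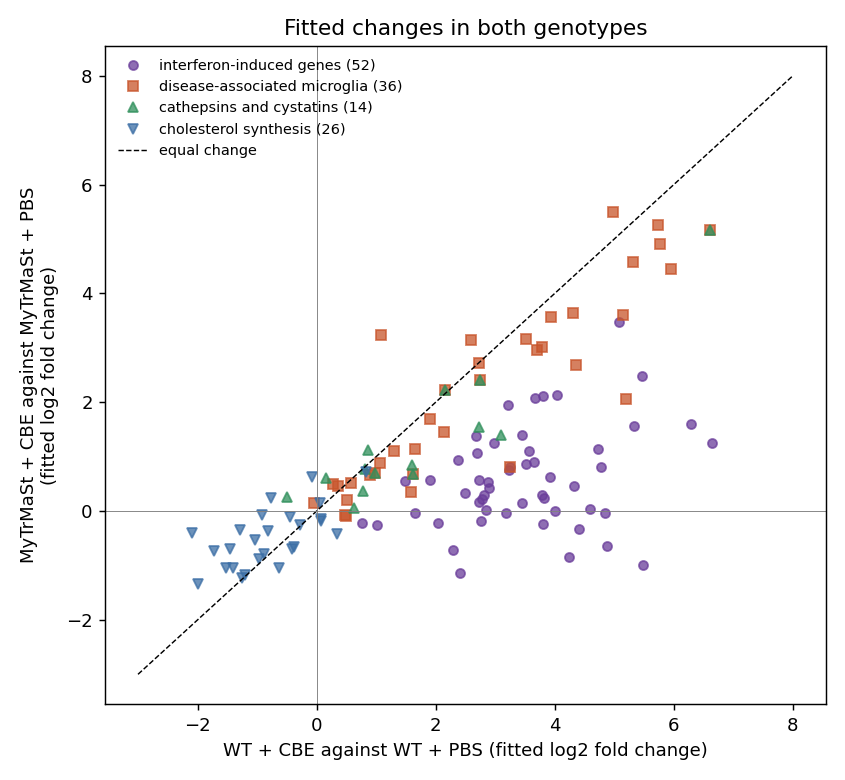
Fitted log2 fold change in MyTrMaSt (vertical) against that in WT (horizontal) for the tested members of 4 gene lists, with the dashed line at equal change. IFN-induced genes, with a median of 0.50 in MyTrMaSt and 3.45 in WT, lay below the line, while DAM genes, cathepsins and cholesterol synthesis genes lay nearer to it.

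The DEGs of the null mice mostly had the same sign in WT, 444 of all 461 (96.3%), the 5 of the IFN-induced list included. The comparisons share no library. Of the 456 DEGs outside that list 439 (96.3%) had the same sign in WT, against 61.2% of all genes tested, and 302 were DEGs there as well, against 6.4% of all genes tested. Fitted log2 changes in MyTrMaSt and WT were 3.31 and 3.31 for Gfap, 3.15 and 2.60 for Trem2, 2.23 and 2.16 for Ctsd and -1.04 and -1.40 for Hmgcs1, with interaction adjusted p of 0.996, 0.395, 0.933 and 0.473. Medians of other lists lay further apart, at 0.81 in MyTrMaSt and 3.06 in WT for pattern recognition receptors, 1.04 and 2.58 for complement, 1.83 and 3.15 for reactive astrocytes, 1.82 and 3.20 for chemokines and 1.81 and 2.87 for the myeloid list, and these list differences were not tested. Interaction passed for 15 of the 461 DEGs, and 13 of these rose less in the null mice. Before adjustment its p was below 0.05 for 124 of the 461 (edgeR). The 461 were chosen by their change in the null mice, and 452 of the 759 DEGs of WT were not among them. Spp1, the secreted phosphoprotein osteopontin, read 49, 59.97 and 45.8 CPM under PBS and 372, 326, 341, 304 and 323 CPM under CBE in MyTrMaSt, and its log2 change was 2.69 there and 4.37 in WT (interaction adjusted p = 0.00371). Lcn2, an iron-binding lipocalin of reactive astrocytes, changed by 2.68 and 7.52 (interaction adjusted p = 0.00847), Serpina3n by 4.10 and 5.83 (interaction adjusted p = 0.0272) and Vim by 1.72 and 2.93 (interaction adjusted p = 0.0199). The Lcn2 change in the null mice ran from 2.15 to 3.73 when 1 MyTrMaSt library was left out. The other 2 of the 15, Islr2 and Meis3 (the latter named after its values were seen), rose in the null mice (log2 1.30 and 1.41) and had values of -0.34 and -0.52 in WT. Xist was at 0 counts in all WT + PBS libraries and above 18 counts in 2 of the 3 WT + CBE libraries, so the WT contrast is uneven in sex. With the Xist level as a covariate 9 interactions passed and none of the 15 was among them. That covariate went partly with the groups, so a lost call cannot tell a part of sex from lost precision. The part of sex in these differences was not tested further.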

How the data were processed

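Brain RNA of 14 mice was sequenced by a bulk form of MARS-seq. The authors mapped reads to mm10 with hisat 0.1.6, kept unique alignments and deposited raw counts per gene, and their processing notes also name cutadapt and HTSeq. Whether counts used strand or molecular identifiers is not given in the sources used here. The deposited normalized values and the authors' own fold changes were not used. Counts were fitted with edgeR 4.0.16 in R 4.3.3: filterByExpr, TMM, a mean for each of 4 groups over all 14 libraries, and glmQLFTest on MyTrMaSt CBE minus PBS and on the genotype by CBE interaction (adjusted p below 0.05, no fold cutoff). The SE is the log2 fold change divided by the square root of F. The labels number the replicates but do not say that they were separate litters, so p-values measure the spread between these mice. None of the 13 pairs of MyTrMaSt libraries within a group agreed within sampling noise, and WT pairs were not compared.

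The members and the 42 gene lists were chosen with earlier results of these data known. Named genes are the 10 highest and 10 lowest DEGs without overlap, for each list up to 6 DEGs a direction by adjusted p, 2 other genes with the highest CPM and set anchors, and up to 10 DEGs with an interaction. Where PBS counts over the group were 1 to 3, the ratio and its exact 95% interval are given, which cover counting error only, and a PBS count of 0 gives a bound at a floor of 3 counts. The fit was checked on simulated counts. Promoters came from RefSeq (GRCm38.p6) and gene overlaps from GENCODE vM21. In the deposited counts 22 genes are named by a date and were kept as listed. Values of some listed genes are not reported here.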

Additional observations from a re-analysis of the deposited data

Results flagged for a closer look

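In groups of 5 libraries a value far from the others is expected by chance for about 1 gene in 20. Over all 11852 genes tested, 876 (7.39%) had such a value among the 5 MyTrMaSt + CBE libraries by Dixon's criterion, and in 507 of them the library was replicate 4, against 76 to 109 for each of the other 4. Replicate 4 was the highest library in 395 of those 507 genes.

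Among the named genes replicate 4 was the far library for S1pr3 at 126 CPM, Ccl2 at 20.7 CPM, Ccl3 at 78.8 CPM, Tnfrsf1a at 154 CPM, Bcl3 at 15.3 CPM, Timp1 at 42.3 CPM, Socs3 at 53.2 CPM, Tgfbi at 15.3 CPM, Serpina3i at 1.97 CPM, Nefh at 147 CPM, Hspb1 at 230.4 CPM, Apln at 35.9 CPM and Sgk1 at 344 CPM. Replicate 5 was the far library for Itgb2 at 52.1 CPM and replicate 3 for Unc93b1 at 13.8 CPM. In the summed CPM of whole lists replicate 4 was the far library for cholesterol synthesis at 1340 CPM, TNF and NF-kappaB signalling at 978 CPM, TGF-beta signalling at 1621 CPM, neuropeptides at 13484 CPM, endoplasmic reticulum stress at 3713 CPM, autophagy at 5642 CPM and cell cycle at 1016 CPM. The cell cycle sum in replicate 4 was 277% of the PBS mean, and the mean over the 5 CBE libraries was 172%. The Tgfbi call was lost without replicate 4 (log2 0.85, adjusted p = 0.0948). It was also lost without PBS replicate 1 or 2 or without any other CBE library, so it did not rest on replicate 4 alone. What set this library apart was not tested.

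A difference in the CBE response between the genotypes (MyTrMaSt minus WT, log2, adjusted p below 0.05 by edgeR) was found for -3.59 in Irf7, -4.05 in Isg15, -5.53 in Ifit1, -1.68 in Lgals3bp, -1.58 in Psmb8, -1.72 in H2-K1, -2.46 in Gbp3, -4.89 in Ccl5 and -4.70 in Cxcl10. It was -1.18 for Ctss, -1.70 for Ctsc, -1.68 for Spp1, -1.73 for Serpina3n, -4.84 for Lcn2, -2.21 for Tgfbi and -1.21 for Vim. In 2 genes the change was greater in the null mice, by 1.64 for Islr2 and 1.92 for Meis3. With the Xist level as a covariate Ifit1 and Ccl5 alone of these passed (adjusted p = 0.0226 for both), though that covariate went partly with the groups.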

How the results depend on the processing

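The count of DEGs (461, 383 up and 78 down) was 464 with RLE size factors, 486 with DESeq2, 441 with limma voom, 465 with no filter and 494 with only the 8 MyTrMaSt libraries. It was 166 (142 up and 24 down) when every library needed 10 counts, 118 (117 up and 1 down) when change was tested against 2-fold, and 312 (261 up and 51 down) with counts thinned to the smallest library. Leaving out 1 library, which was done for the 8 MyTrMaSt libraries and WT + PBS replicate 1, gave 316 to 583 DEGs, 284 to 465 up and 32 to 118 down, the lowest without PBS replicate 3 and the highest without WT + PBS replicate 1, the shallowest library. Without MyTrMaSt + CBE replicate 4 it was 410. The 58 interactions became 130 with DESeq2, 18 with 10 counts in every library, 16 with thinned counts, 9 with the Xist covariate and 24 to 105 without 1 of these 9 libraries, and the 26 among IFN-induced genes became 31, 7 (of 9 tested), 12, 6 and 15 to 30. Adding the replicate block gave 292 DEGs (31 down) and 32 interactions, but the numbers did not pair the samples, since same-numbered libraries correlated at -0.12, 0.02 and -0.08 in their deviations. Over the named genes 2920 of 3145 values under 19 alternatives kept direction and side of the threshold, 194 lost the call, 18 gained it and 13 turned sign. Leaving out 1 library turned Mavs (log2 -0.24 to 0.41, negative without PBS replicate 3 or CBE replicate 1), Isg15 (-0.55 to 0.023, positive without PBS replicate 3 or CBE replicate 3), Ifit1 (-1.09 to 0.12) and Rbfox3 (-0.16 to 0.13), the last 2 positive without PBS replicate 3. Ccl5, at -0.03, ranged from -0.44 to 0.32 without 1 library and was 0.0025 with the replicate block, 0 with the Xist covariate and 1.14 with thinned counts. The causes were not tested. Median changes over all genes moved by at most 0.0111 on the log2 scale. Depth limits genes at a few CPM, such as Isg15, Ifit1 and the 4 adaptors, where 1 CPM is about 2 to 4 reads.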

Other observations

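Of the 461 DEGs 299 were in none of the gene lists, 243 up and 56 down. The genes below were chosen after their values were seen, and their changes are by edgeR in MyTrMaSt + CBE against MyTrMaSt + PBS. Several belong to lysosomes or to innate sensing. Grn, encoding progranulin, a secreted protein that is delivered to lysosomes, read 115, 116 and 92.6 CPM under PBS and 480.0, 446, 433, 389 and 466 CPM under CBE (4.1-fold, log2 2.04, SE 0.17, adjusted p = 3.02e-07). Tcirg1, the isoform of a proton pump subunit found in osteoclasts and macrophages and not a member of the proton pump list, rose 3.74-fold (adjusted p = 0.00799), a call lost without PBS replicate 3. Unc93b1, the chaperone that brings Toll-like receptors to endosomes, rose 3.59-fold (adjusted p = 0.00195), and Irf5, a transcription factor downstream of MyD88, 3.47-fold (adjusted p = 7.51e-06). Irf5 read 18.3, 18.4, 17.4, 18.7 and 17.2 CPM in the CBE libraries. Tspo, the mitochondrial outer membrane protein used as a marker of neuroinflammation, rose 3.33-fold and S100a6, a calcium-binding protein, 3.08-fold, and no library of either group overlapped with the other for any of these genes.

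A second set is known from energy and hormone control. Sgk1, the kinase named for its induction by serum and glucocorticoids, read 84.9, 105 and 108 CPM under PBS and 278, 289.9, 277, 344 and 290.4 CPM under CBE (2.98-fold, log2 1.57, SE 0.14, adjusted p = 1.45e-06). Txnip, an inhibitor of thioredoxin and of glucose uptake, rose 2.94-fold, Angptl4, an inhibitor of lipoprotein lipase, 3.55-fold and Slc2a4, the insulin-responsive glucose transporter, 4.29-fold, from 5.72 ± 0.554 to 24.5 ± 5.5 CPM (SD, n = 3 and 5). In WT the fitted log2 changes were 1.30, 1.21, 2.32 and 0.92. Ly9 and Tgm1, an immune cell receptor and a transglutaminase, had no count in the PBS libraries and were at least 7.23-fold and 5.68-fold higher (floor of 3 counts over the group).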
